A study of Mus musculus with 14 samples.

Results

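Among the genes that lay lower in cerebral cortex lacking CTCF in excitatory neurons were 4 sets of chromosomal neighbours, Rad51d with Nle1, Slc35b2 with Slc29a1, Elavl4 with Bend5, and Pml with Stoml1. These 8 genes, of 14860 genes that had a probe set carrying their symbol alone, were chosen by their cortex values, since both genes of each pair lay lower in the mutant cortex than in control cortex. The cortex values are therefore a description, and neither a p-value nor a count of calls among the 8 there is evidence of a change. The arrays of hippocampus and the genes around the pairs were not used in that choice. Each of the 8 was read by 1 probe set.

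The study hybridised RNA of C57BL/6 mice at postnatal day 7, all labelled male, to 14 Affymetrix exon arrays. The cKO (conditional knockout) carried 2 floxed Ctcf alleles and 1 copy of Nex-Cre (CTCF fl/fl; +/Cre), and the control carried the same floxed alleles without Cre (CTCF fl/fl; +/+). The Cre of this line sits in the Neurod6 (Nex) locus and acts in excitatory neurons of cortex and hippocampus, so that interneurons, glia and vessel cells in the same tissue keep their Ctcf. The labels gave 4 cKO and 4 control arrays of cortex, and 3 cKO and 3 control arrays of hippocampus. Expression is given per probe set on the log2 scale, and all changes are cKO minus control on that scale unless another pair of groups is named. In bulk tissue, fewer cells of a type and less RNA per cell cannot be told apart.

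CTCF binds DNA through zinc fingers at insulator sites and holds the ends of chromatin loops together with cohesin. Such loops place promoters and enhancers in shared or in separate domains, and genes that lie side by side can share a domain and its enhancers. In the developing brain CTCF is known for its sites in the clustered protocadherin genes, where it brings an enhancer to the promoter that is used.

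The array labels were checked first. Of the arrays labelled hippocampus, control 2, cKO 1 and cKO 3 had Prox1, which marks granule cells of the dentate gyrus, between 6.65 and 6.91, whereas cKO 2 had 9.12 and controls 1 and 3 had 8.91 and 9.28. Those 3 arrays also paired with single cortex arrays. Hippocampus cKO 1 matched cortex cKO 3, hippocampus cKO 3 matched cortex cKO 2, and hippocampus control 2 matched cortex control 3, each with a Spearman correlation of 0.997 over all probe sets to 3 decimals, against at most 0.990 for any other pair of arrays. For the 8 genes the matched arrays differed by no more than 0.254, 0.296 and 0.272 in that order of pairs. The 3 arrays were set aside, which left 11 arrays, and the results with all 14 are given beside those without them. The mean of the Y-linked genes Eif2s3y and Kdm5d was 3.61 and 3.65 on cortex cKO 1 and 4, 3.79 on hippocampus cKO 2 and 4.10 on hippocampus control 1, against at least 7.91 on the other 10 arrays, so these 4 arrays went against their label as male. Ctcf was 7.81 ± 0.09 in cortex cKO and 9.23 ± 0.05 in cortex control (SD, n = 4 each), and Neurod6, the Cre locus, was 8.37 ± 0.46 in cKO and 10.2 ± 0.13 in control. Ctcf fell by 1.42 (limma, adjusted p = 8.42e-05) and Neurod6 fell by 1.87 (limma, adjusted p = 0.00201) in cKO cortex.

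In cortex all 8 genes had every cKO array below every control array, a separation that 5.7% of all 23332 probe sets showed in that direction. Their changes ran from -1.09 for Stoml1 to -0.48 for Slc35b2, with a median of -0.64 beside -0.02 for all probe sets. At the threshold applied to all probe sets (limma with Benjamini-Hochberg adjustment, adjusted p under 0.05 and a fold above 1.2), 7 of the 8 were called lower and Slc35b2 was not, beside 1.36% of all probe sets called lower. The choice of genes used this contrast, so nothing is read from either count. Without cortex cKO 1 and 4, the cKO arrays lacking Y-linked signal, the 8 changes lay between -1.24 and -0.46, and 0 of the 8 were called, beside 0.18% of all probe sets called lower on these 6 cortex arrays. With Y-linked signal as a covariate 5 of the 8 were called, beside 0.806% of all probe sets, and with all 14 arrays as labelled 8 of 8, beside 1.06%.

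**Figure D1:**
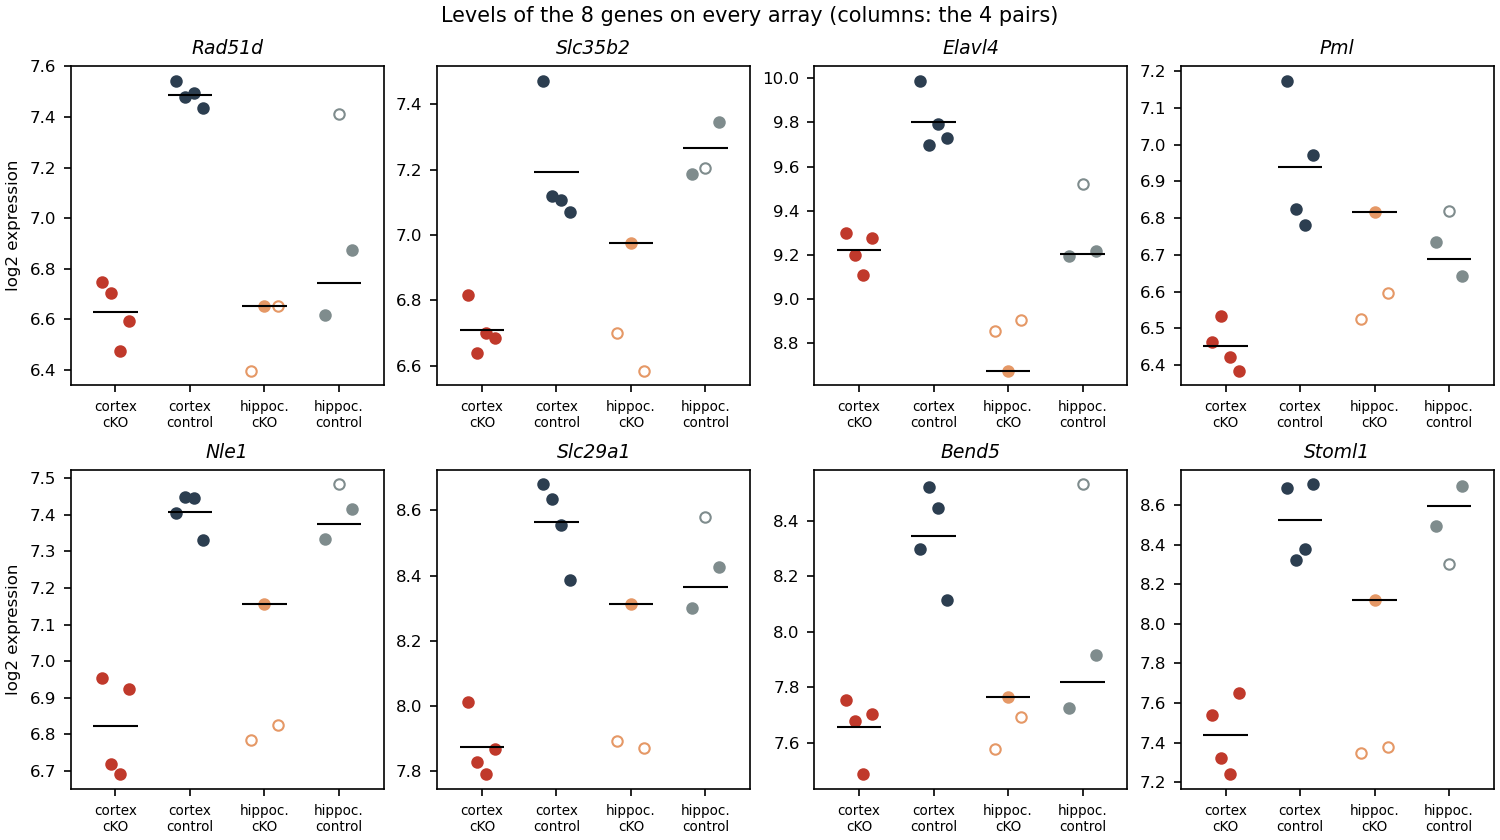
Log2 expression of each of the 8 genes on every array, with 1 panel per gene and its own vertical axis, and cKO left of control within each region. Filled points are the 11 arrays used, open points the 3 arrays set aside, and lines the group means; in cortex every cKO point lies below every control point, while in hippocampus the single cKO array used lies near its 2 controls for Rad51d, Slc29a1 and Bend5.

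Rad51d encodes a protein of DNA repair by homologous recombination. Its values were 6.75, 6.71, 6.48 and 6.59 on cortex cKO 1 to 4, against 7.54, 7.48, 7.50 and 7.43 on cortex control 1 to 4. The groups were separated by more than the whole range of either, and the mean change was -0.86 (SE 0.09), which leaves 55.2% of the control level. Its neighbour Nle1 encodes Notchless, a WD-repeat protein that takes part in the assembly of the large ribosomal subunit. Nle1 had 6.96, 6.72, 6.69 and 6.92 in cKO cortex, against 7.40, 7.45, 7.45 and 7.33 in control cortex. Here cKO 1 and 4 lay above cKO 2 and 3 and all 4 lay below the controls, with a change of -0.59 (SE 0.08) or 66.6% of control. Rad51d and Nle1 lie on chromosome 11 with the gene Fndc8 between them in the RefSeq order. Fndc8 had no probe set with its symbol alone and is not analysed here.

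Slc35b2 encodes the Golgi transporter of PAPS, the donor of sulfate for proteoglycans and sulfated proteins. Its values were 6.82, 6.64, 6.70 and 6.68 in cKO cortex, against 7.47, 7.12, 7.11 and 7.07 in control cortex. Control 1 stood above the other controls, and the change of -0.48 (SE 0.10) became -0.39 without it. Slc29a1 encodes ENT1, the equilibrative transporter that carries adenosine and other nucleosides across the plasma membrane. It had 8.01, 7.83, 7.79 and 7.87 in cKO cortex, against 8.68, 8.63, 8.56 and 8.39 in control cortex, with a change of -0.69 (SE 0.09) or 62.0% of control. The pair lies on chromosome 17 with Hsp90ab1 between the genes, which again had no probe set of its own and is not analysed here. By their RefSeq starts the genes point toward each other, 35682 bases apart.

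This pair held the only matches to the CTCF core consensus, a pattern of 12 letters searched on both strands, in the promoter windows of the 8 genes. The windows, from 250 bases before a RefSeq start to 50 after it, numbered 17 for 7 of the 8 genes, and Rad51d had none in the table. The single Slc35b2 window and the windows of starts 2 and 5 of the 8 listed for Slc29a1 held a match, that is 3 of 17, beside 0.557% of all 32851 promoter windows. Windows of the same gene are not separate members, and Slc29a1 alone gave 8 of the 17. By the first listed window of each of the 7 genes, only that of Slc35b2 held a match, beside 0.551% of such windows over all genes. The 250 upstream bases of these 3 windows (RefSeq, GRCm38.p6) are shown with the match in capitals because they are the windows with a match. They lie at chr17:45563686-45563935 on the plus strand for Slc35b2, and on the minus strand at chr17:45597152-45597401 and chr17:45595531-45595780 for Slc29a1 starts 2 and 5.
Slc35b2: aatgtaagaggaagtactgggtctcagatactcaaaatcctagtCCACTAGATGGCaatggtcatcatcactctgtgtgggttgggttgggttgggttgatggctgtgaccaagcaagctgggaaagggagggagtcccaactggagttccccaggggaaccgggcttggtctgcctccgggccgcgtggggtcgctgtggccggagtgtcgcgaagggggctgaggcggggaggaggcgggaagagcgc
Slc29a1 start 2: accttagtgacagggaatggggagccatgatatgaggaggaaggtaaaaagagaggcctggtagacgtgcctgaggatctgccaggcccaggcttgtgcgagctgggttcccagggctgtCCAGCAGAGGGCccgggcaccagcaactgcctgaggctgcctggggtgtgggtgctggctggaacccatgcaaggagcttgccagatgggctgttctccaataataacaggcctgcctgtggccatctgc
Slc29a1 start 5: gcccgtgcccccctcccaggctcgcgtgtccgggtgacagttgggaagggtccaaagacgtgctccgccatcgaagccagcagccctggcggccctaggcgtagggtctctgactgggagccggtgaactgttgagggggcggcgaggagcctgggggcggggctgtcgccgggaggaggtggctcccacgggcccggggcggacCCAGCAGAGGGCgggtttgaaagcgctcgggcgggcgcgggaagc
The match lay 206 to 195 bases before the Slc35b2 start, and 130 to 119 and 45 to 34 bases before Slc29a1 starts 2 and 5. Both Slc29a1 matches overlap a match to the shorter motif CCCTC read on the other strand. CCCTC on either strand was in 14 of the 17 windows, all 8 of Slc29a1 among them, beside 66% of all windows. The first listed windows of the 7 genes held between 11 and 23 CpG, beside a median of 7 over all windows. A match is a description of the letters, and binding was not measured here.

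Elavl4 encodes HuD, a neuronal RNA-binding protein that stabilises transcripts with AU-rich elements. Its values were 9.30, 9.20, 9.11 and 9.28 in cKO cortex, against 9.99, 9.70, 9.79 and 9.73 in control cortex, a change of -0.58 (SE 0.08) or 66.9% of control. Bend5 encodes a protein with a BEN domain, a fold that binds DNA. Bend5 had 7.75, 7.68, 7.48 and 7.70 in cKO cortex, against 8.30, 8.52, 8.45 and 8.12 in control cortex, a change of -0.69 (SE 0.11). Both genes were separated between genotypes, and their changes differed from each other by only 0.11. On chromosome 4 the starts of this pair lie 1063095 bases apart and point away from each other, and Bend5 lies within the span of Agbl4, a gene with no probe set of its own that is not analysed here. The pair are neighbours among the measured genes and not in the full gene order.

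Pml encodes the scaffold protein of PML nuclear bodies. It had 6.46, 6.53, 6.42 and 6.38 in cKO cortex, against 7.17, 6.82, 6.78 and 6.97 in control cortex, a change of -0.49 (SE 0.09) or 71.3% of control. Stoml1 encodes a stomatin-like membrane protein that also carries a sterol carrier domain. It had 7.54, 7.32, 7.24 and 7.65 in cKO cortex, against 8.69, 8.32, 8.38 and 8.70 in control cortex. Stoml1 was the gene of the 8 with the greatest change in cortex, -1.09 (SE 0.13), which leaves 47.1% of the control level, and the gap of 0.60 between the changes of Stoml1 and Pml was the widest within a pair. In both groups arrays 1 and 4 of Stoml1 lay above arrays 2 and 3.

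Of the 4 pairs, Pml and Stoml1 alone are next to each other in the RefSeq order with no protein-coding gene between. Their starts on chromosome 9 lie 3378 bases apart and point away from each other, which is why the upstream sequence of both is shown. The 250 bases before the Pml start are chr9:58249787-58250036 on the minus strand, and those before the Stoml1 start are chr9:58252914-58253163 on the plus strand (RefSeq, GRCm38.p6). Nothing is in capitals because neither holds a match to the CTCF core consensus. Neither holds CCCTC on either strand, a motif that is not marked in any sequence shown here.
Pml: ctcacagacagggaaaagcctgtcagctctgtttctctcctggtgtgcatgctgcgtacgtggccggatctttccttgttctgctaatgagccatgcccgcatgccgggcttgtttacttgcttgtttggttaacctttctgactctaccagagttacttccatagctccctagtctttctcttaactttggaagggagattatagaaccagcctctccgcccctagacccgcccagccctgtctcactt
Stoml1: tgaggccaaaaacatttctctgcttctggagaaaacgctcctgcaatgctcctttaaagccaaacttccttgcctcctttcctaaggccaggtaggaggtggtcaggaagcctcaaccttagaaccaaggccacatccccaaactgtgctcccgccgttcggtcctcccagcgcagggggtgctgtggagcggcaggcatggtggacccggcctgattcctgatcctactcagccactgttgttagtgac
The letters of the rest of the interval were not searched.

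The order of the arrays within a genotype was shared by many of the 8 genes. Cortex cKO 3 was the lowest cKO array for 6 of the 8 and cKO 1 the highest for 6. Among controls, array 1 was the highest for 5 and array 4 the lowest for 5. Cortex cKO 3 was also the lowest cKO array for Ctcf, at 7.74, and for Neurod6, at 7.78. Over all probe sets, cortex cKO 3 also had the lowest median of the cKO cortex arrays, 6.57, and control 1 the highest of the controls, 6.77. The other medians did not follow this order. The highest cKO median was 6.633 on cKO 4, beside 6.626 on cKO 1, and the lowest control median was 6.58 on control 2, beside 6.64 on control 4. The share of all probe sets with the same order was not computed, and the part of array-wide differences was not tested.

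In hippocampus, which the choice of genes did not use, 0 of the 8 genes were called by limma, beside 0.00429% of all probe sets called lower (1 of 23332). At an unadjusted p under 0.05 Elavl4 passed and the other 7 did not, beside 6.21% of all probe sets, and the count of calls was also 0 by the same contrasts without moderation. The comparison rests on 1 cKO array and 2 control arrays, and the fit takes the spread of the lone cKO array from the other groups, so a change had to be large to pass. Ctcf itself was 8.31 on this cKO array, against 8.95 and 9.16 on the controls, a change of -0.75 that also was not called (limma, adjusted p = 0.172).

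The changes in hippocampus were negative for 7 of the 8 genes, with a median of -0.16, beside 39.9% of all probe sets negative and a median of 0.06. Elavl4 had 8.67 on the cKO array, against 9.19 and 9.22 on the controls. Its change of -0.53 (95% interval -0.86 to -0.20) did not pass adjustment over all probe sets (limma, adjusted p = 0.438). That interval takes its spread from all 4 groups, and with the hippocampus arrays fitted alone it was -1.07 to 0.0083 and took in 0. Stoml1 had 8.12 on the cKO array, against 8.49 and 8.69 on the controls, a change of -0.47 whose interval of -0.98 to 0.03 takes in 0. The cKO array lay below both controls for these genes, as it did for 25.8% of all probe sets, and likewise for Slc35b2, at 6.98 against 7.19 and 7.35, and for Nle1, at 7.16 against 7.33 and 7.41.

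For the other 4 genes the hippocampus arrays overlapped or ran the other way. Rad51d had 6.65 on the cKO array, between its controls at 6.62 and 6.87, with a change of -0.09 (95% interval -0.43 to 0.25). Slc29a1 had 8.31, against 8.30 and 8.43, and Bend5 had 7.76, against 7.72 and 7.92. These 3 cKO values lay between the control values, and the changes of Slc29a1 and Bend5 were -0.05 and -0.06. Pml had 6.82 on the cKO array, above both controls at 6.73 and 6.64 as 41.6% of all probe sets did, with a change of 0.13 (95% interval -0.24 to 0.50).

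Within a pair, the hippocampus changes of Elavl4 and Bend5 differed by 0.47, against 0.11 in cortex, and those of Pml and Stoml1 by 0.60 in both regions. For Rad51d with Nle1 and Slc35b2 with Slc29a1 the hippocampus gaps were 0.12 and 0.24, against 0.27 and 0.21 in cortex, and no gap was tested. Taking the hippocampus change minus the cortex change, all 8 genes had positive values, from 0.05 for Elavl4 to 0.76 for Rad51d, beside a median of 0.08 over all probe sets, although Elavl4 turned to -0.049 when arrays were centred on their medians. That difference contains the cortex contrast by which the genes were chosen, so it is a description, and 0 of the 8 were called by limma, beside 0.00857% of all probe sets called. At an unadjusted p under 0.05 there were 5 of the 8, beside 5.26% of all probe sets. With all 14 arrays as labelled, the hippocampus changes were larger for 6 of the genes, for instance -0.40 for Rad51d and -0.88 for Stoml1. They were negative for 8 of 8, and again 0 of the 8 were called, beside 0.193% of all probe sets called lower. At an unadjusted p under 0.05 there were 6 of the 8, beside 8.61% of all probe sets. The cKO arrays added in that comparison are those that match cortex cKO 2 and 3.

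**Figure D2:**
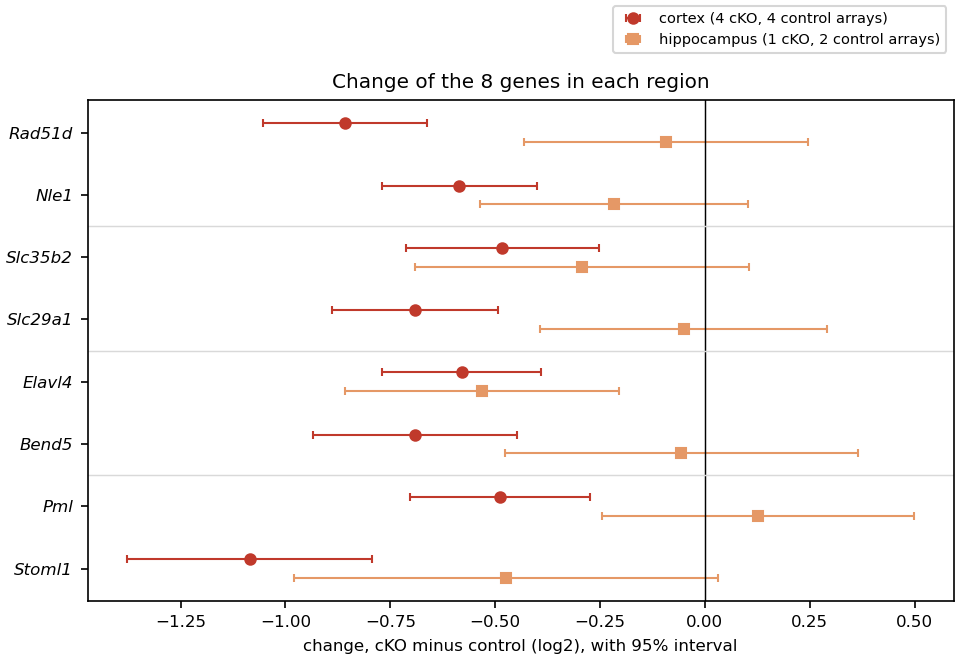
Change in log2 expression, cKO minus control, of each of the 8 genes in cortex (4 arrays each) and in hippocampus (1 cKO and 2 control arrays), with 95% intervals from the fit over all probe sets. All 8 cortex changes are at or below -0.48, and of the hippocampus intervals that of Elavl4, -0.86 to -0.20, leaves out 0 here but takes in 0 with the hippocampus arrays fitted alone, while the other 7 take in 0.

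Levels in control tissue were also read. Control hippocampus (2 arrays) was set against control cortex (4 arrays), and the same cortex control arrays took part in the choice of the genes. Genes chosen for high values on those arrays lean toward lower values in any group set against them, so these differences are a description with no test. Rad51d was at 6.62 and 6.87 in control hippocampus and at 7.43 to 7.54 in control cortex, a difference of -0.74 (SE 0.11). Elavl4 was at 9.19 and 9.22 in hippocampus and at 9.70 to 9.99 in cortex, a difference of -0.60 (SE 0.10). Bend5 was at 7.72 and 7.92 in hippocampus and at 8.12 to 8.52 in cortex, a difference of -0.53 (SE 0.13). For these 3 genes the regions did not overlap, nor did they for Pml, at 6.73 and 6.64 in hippocampus and 6.78 to 7.17 in cortex. The share of all probe sets without overlap is not reported here, and nothing is read from this separation. Rad51d, Elavl4 and Bend5 were the ones that passed the threshold. Of all probe sets, 6.29% were called lower and 6.2% higher in control hippocampus, and nothing is read from the count among the 8. With all 14 arrays as labelled 1 of the 8 passed, beside 0.557% of all probe sets called lower. Elavl4 lost its call without hippocampus control 1, and Bend5 lost it without either hippocampus control, cortex control 1, 2 or 3, or cortex cKO 2 or 4.

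The other 5 genes did not pass between the regions. Their differences, hippocampus minus cortex, were 0.07 for Slc35b2, 0.07 for Stoml1, -0.03 for Nle1, -0.20 for Slc29a1 and -0.25 for Pml. The interval for Nle1 was -0.26 to 0.19 and that for Stoml1 -0.29 to 0.43. Elavl4 and Bend5 thus differed between regions by amounts within 0.07 of each other, whereas Rad51d and Nle1 were 0.71 apart. The cKO cortex arrays of Rad51d, at 6.48 to 6.75, overlapped the control hippocampus arrays, at 6.62 and 6.87.

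The genes around the pairs were read to see how far the lower values reached. The nearest 5 protein-coding genes on either side of each pair and every gene between its members came to 43 genes, of which 31 were measured. Among these, 2 were called lower and 0 higher (limma), beside 1.36% and 0.591% of all probe sets called lower and higher. The median change of the 31 was -0.05, beside -0.02 over all probe sets, and 22 of the 31 were negative, beside 54.6% of all probe sets. By pair, the median was -0.22 over the 7 measured genes around Slc35b2 and Slc29a1, of which 4 were negative. It was -0.07 around Rad51d and Nle1, -0.04 around Elavl4 and Bend5 and -0.03 around Pml and Stoml1.

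Islr2, which encodes a neuronal membrane protein with leucine-rich repeats and stands next to Pml, was called lower. It had 9.48, 9.07, 9.07 and 9.46 in cKO cortex, against 10.50, 10.63, 10.54 and 10.31 in control cortex. The groups did not overlap, and the change was -1.23 (SE 0.12; limma, adjusted p = 0.00128). With all 14 arrays as labelled the cortex change was the same, its SE was 0.35 and the call was lost (limma, adjusted p = 0.155). That fit takes its spread from all groups. In it hippocampus cKO 1 and 3, which match cortex arrays, had Islr2 at 8.93 and 9.10. On the unmatched hippocampus arrays Islr2 had 10.9 on the cKO array, against 11.1 and 11.2 on the controls, a change of -0.21. Islr2, Pml and Stoml1 thus formed a run of 3 neighbouring measured genes that were called lower in cortex, while Loxl1 on the far side of Stoml1 had a change of -0.13 (SE 0.11) and was not called. The run rests on Pml, whose call was lost without any 1 of the 4 cortex cKO arrays, cortex control 2 or 4 or either hippocampus control, and with Y-linked signal as a covariate.

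Aars2, the mitochondrial alanyl-tRNA synthetase, was the other flanking gene called lower, and it lies 4 genes before Slc35b2. It had 6.38, 6.43, 6.44 and 6.35 in cKO cortex, against 7.00, 6.96, 6.80 and 6.89 in control cortex, a change of -0.51 (SE 0.07; limma, adjusted p = 0.00433). Over 23 alternative settings its adjusted p reached 0.15, without cortex cKO 1 and 4. The genes between Aars2 and the pair were not called. Tcte1 had a change of 0.049 (limma, adjusted p = 0.933), Tmem151b one of -0.38 (limma, adjusted p = 0.132) and Nfkbie, an inhibitor of NF-kappa-B, one of -0.22 (SE 0.08; limma, adjusted p = 0.258).

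At Rad51d with Nle1 and Elavl4 with Bend5 the nearest measured genes were not called and had small changes. Rffl and Unc45b, on either side of Rad51d and Nle1, had changes of -0.01 and -0.02. Dmrta2 and Slc5a9, on either side of Elavl4 and Bend5, had 0.09 and -0.00. Mean control cortex levels were 6.06 for Rffl, 5.58 for Unc45b, 7.40 for Dmrta2 and 5.56 for Slc5a9, beside array medians of 6.57 to 6.77. Capn11, the nearest measured gene after Slc29a1, had -0.49 with an SE of 0.31 and an SD of 0.741 over its 4 control arrays, and it was not called. None of the 9 measured flanking genes at Rad51d and Nle1, or of the 6 at Elavl4 and Bend5, was called.

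**Figure D3:**
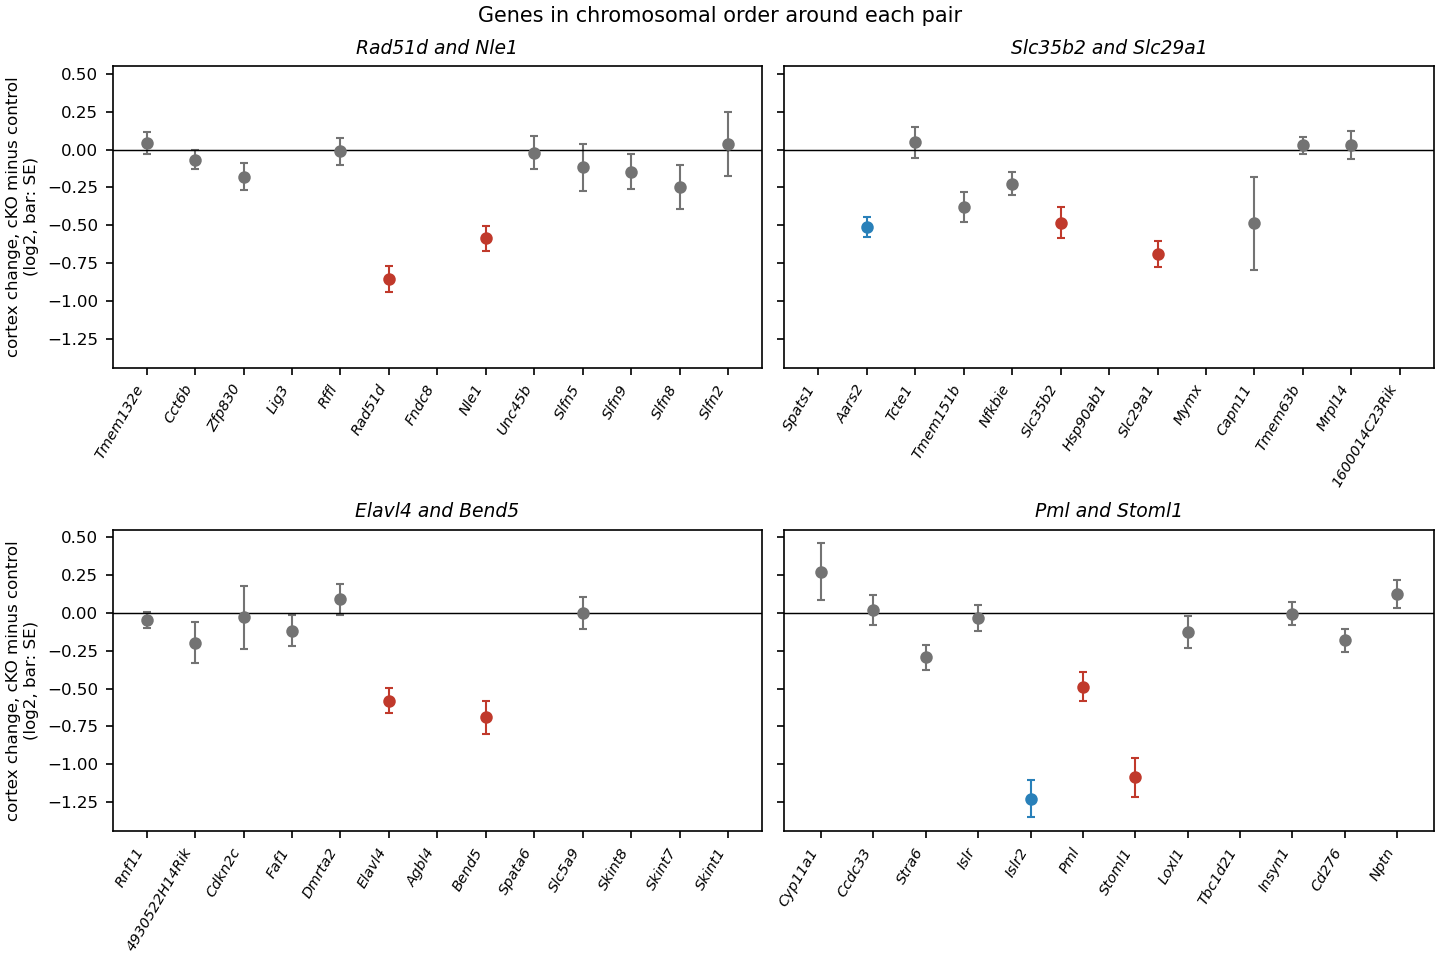
Change in cortex, cKO minus control on the log2 scale with its SE, of the genes around each pair in the RefSeq gene order; genes with no probe set of their own have no point. The 8 pair genes are red, called flanking genes blue and flanking genes that were not called grey, and blue points appear at Islr2 (-1.23) beside Pml and at Aars2 (-0.51), 4 genes before Slc35b2.

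Neighbours that were both called lower were counted over the genome. The 14582 measured genes that could be placed in the RefSeq order formed 14561 neighbouring pairs, of which 25 had both genes called lower, 7 had both called higher and 8 had 1 of each. Of the 25, 18 were steps along the protocadherin beta cluster. The other 7 held 3 of the 4 pairs described here, since Slc35b2 was not called, and Islr2 with Pml. The remaining ones, named after their values were seen, were Lypd6b with Lypd6 (-0.90 and -0.91), Mgat4c with Nts (-0.75 and -1.40) and Hspb3 with Arl15 (-1.04 and -0.55). Genes called lower made up 2.02% of the placed genes, and pairs with both lower 0.172% of the neighbouring pairs. The 0.172% includes the 18 protocadherin beta steps and the 3 pairs chosen by their cortex values. The share of pairs that unlinked calls would give was not computed, so no excess of neighbours is read from these shares.

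Genes related to the 8 by pathway, domain or family were read in 7 lists, with the 8 genes themselves left out. The lists were drawn up from the known roles of Nle1, Slc35b2, Slc29a1, Elavl4, Bend5, Pml and Stoml1. The lists were chosen with earlier results of these data known, so their counts of calls are a description. The sulfate list held enzymes that make PAPS and sulfotransferases that use it, together with Slc35b3, Slc26a2 and Bpnt1. It had 4 of 23 measured genes called lower and 0 higher in cortex, beside 1.36% and 0.591% of all probe sets, with a median change of -0.07. Of the 23, 15 had negative and 8 had positive changes. The largest rises, neither of them called, were 0.59 for Chst7 (limma, adjusted p = 0.118) and 0.45 for Ust (limma, adjusted p = 0.243). Hs6st2, a heparan sulfate 6-O-sulfotransferase, had 8.39, 8.53, 8.50 and 8.47 in cKO cortex, against 9.86, 9.74, 9.80 and 9.81 in control cortex. It fell by 1.33 (SE 0.06; limma, adjusted p = 4.70e-05) and was called under all 23 alternatives run. In hippocampus it had 9.24 on the cKO array, against 9.68 and 9.75 on the controls, a change of -0.47 that was not called (limma, adjusted p = 0.342).

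The other 3 calls in the sulfate list were less stable. Ndst3, a heparan sulfate N-deacetylase and N-sulfotransferase, fell by 0.95 (SE 0.14; limma, adjusted p = 0.00849). It averaged 6.65 ± 0.22 in cKO and 7.60 ± 0.17 in control cortex (SD, n = 4 each), and without cortex cKO 1 and 4 its limma adjusted p was 0.0963. Chst11, a chondroitin 4-O-sulfotransferase, fell by 0.52 (SE 0.09; limma, adjusted p = 0.0206). Its call was lost without cKO 1, cKO 2, cKO 4, control 1, control 3 or control 4 in turn, with limma adjusted p between 0.0546 and 0.0739. Chst15, which adds a further sulfate to chondroitin sulfate, fell by 0.48 (SE 0.10; limma, adjusted p = 0.0446), and its call was lost without any 1 of the 8 cortex arrays, with limma adjusted p between 0.0549 and 0.135.

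The list of ELAV and other neuronal RNA-binding proteins had 1 of 17 measured genes called lower, beside 1.36% of all probe sets, and 0 higher. That gene was Rbfox1, a splicing factor of neurons, which fell by 0.38 (SE 0.08; limma, adjusted p = 0.0420) and lost the call without any 1 of the 8 cortex arrays, with limma adjusted p between 0.0729 and 0.131. The ELAV relatives of Elavl4 stayed near 0, with changes of -0.04 for Elavl1, 0.03 for Elavl2 and -0.08 for Elavl3. Among 6 measured BEN domain genes 1, Bend6, rose, beside 0.591% of all probe sets called higher. Its change was 0.36 (SE 0.06; limma, adjusted p = 0.0153), in the opposite direction to Bend5. That call was lost without cKO 2, cKO 3, cKO 4, control 2, control 3 or control 4 in turn, with limma adjusted p between 0.0509 and 0.0638. With all 14 arrays as labelled the cortex change was the same 0.36, and the call was also lost (limma, adjusted p = 0.473).

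The remaining 4 lists had no gene called in either direction by limma. The list for Nle1 held factors of large ribosomal subunit assembly, together with Bysl, a factor of the small subunit, and Notch1, the receptor for which Notchless was named. Its 16 measured genes had negative changes in cortex with a median of -0.10, beside 54.6% of all probe sets negative, whereas its median in hippocampus was 0.12. The smallest p belonged to Pes1, at -0.25 (SE 0.10; limma, adjusted p = 0.372). In the nucleoside list Adk, which clears adenosine, had 0.36 (limma, adjusted p = 0.201) and Slc29a3, a relative of Slc29a1, had -0.29 (limma, adjusted p = 0.243). The 12 measured components of PML bodies had a median of 0.01, with Pias4 at -0.17 and Usp7 at 0.11. The 8 measured stomatin and prohibitin relatives of Stoml1 had a median of -0.02, with Stoml3 at 0.19 and Stom at 0.08.

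**Figure D4:**
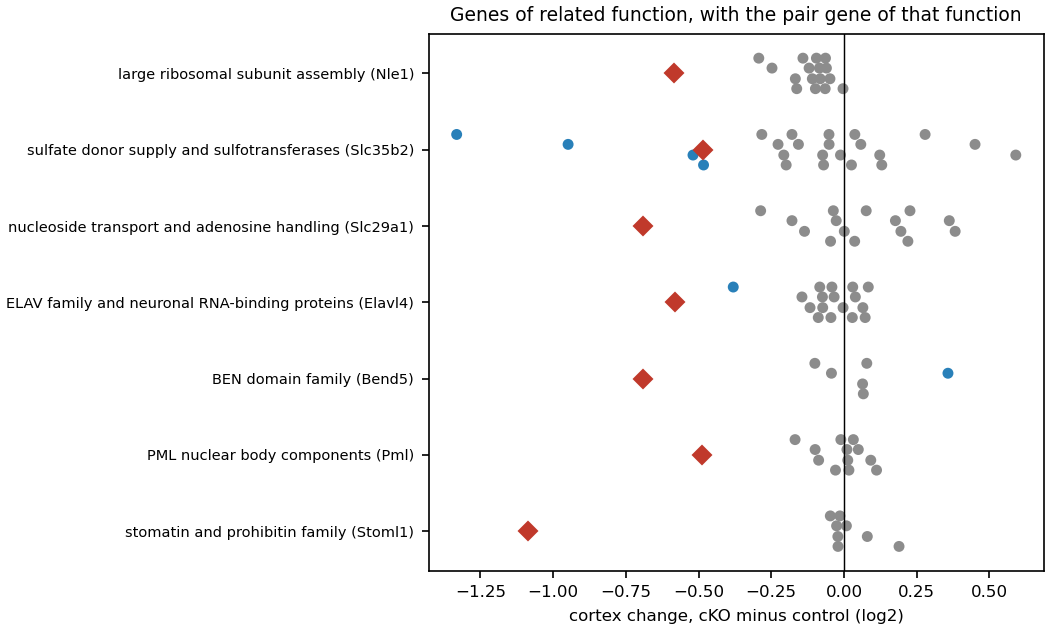
Change in cortex, cKO minus control on the log2 scale, of each measured gene in the 7 lists, with the pair gene of each list as a red diamond, genes called by limma in blue and all others in grey. The sulfate list holds the blue points farthest to the left, with Hs6st2 at -1.33, while the genes of 4 lists are grey throughout.

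Markers of cell types were read beside these values. Excitatory neuron markers, the cells that carry Cre, had 1 of 9 measured genes called, Neurod6, and a median change of -0.16. Of the 9, 5 had negative and 4 had positive changes. Their mean level was 9.26 to 9.35 on cKO and 9.35 to 9.69 on control cortex arrays. That level includes Neurod6, the Cre locus, with its change of -1.87, and the level without Neurod6 was not computed. All 12 microglia markers had positive changes with a median of 0.34 and none was called, and their mean level was 6.56 to 7.08 on cKO and 6.22 to 6.79 on control arrays. All 13 endothelial and pericyte markers had negative changes with a median of -0.16 and none was called, with mean levels of 7.66 to 7.77 on cKO and 7.70 to 8.11 on control arrays. Interneuron, astrocyte, oligodendrocyte, and meninges and choroid plexus markers had medians between -0.05 and 0.07 and no call. Of 11 measured markers of cortex over hippocampus 4 were called lower, Lmo4 (-0.44), Fezf2 (-1.63), Tle4 (-0.48) and Ctgf (-1.05), beside 1.36% of all probe sets. The median of that list was -0.24, and 3 of its genes had positive changes, Rorb among them at 0.11. Of 9 measured markers of hippocampus over cortex 2 were called lower, Grik4 (-0.75) and Spock1 (-1.15), with a list median of -0.09. In that list 3 genes had positive changes, among them Prox1 at 0.23 and Zbtb20 at 0.17. Fezf2 and Spock1 did not mark their region here, with control hippocampus minus cortex differences of 0.0056 and -0.71. The part of cell composition in the changes of the 8 genes was not tested.

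For each pair, the 2 genes whose profile over the 11 arrays lay nearest to the pair's mean profile were found by the root mean square difference after centring each profile on its own mean. The arrays share their genotype and region differences, the cortex contrast is part of the profile, and the genes named are the smallest distances among all genes with 1 symbol, so that they are a description. For Rad51d and Nle1 these were Cntnap4 (0.0643) and Mthfd2 (0.0883), beside 0.139 for Rad51d and for Nle1 themselves. For Slc35b2 and Slc29a1 they were Adamts18 (0.0902) and Rbm45 (0.0935), beside 0.0687 for each gene of the pair. Myo18a (0.0886) and Mgat5b (0.0914) were nearest to Elavl4 and Bend5, beside 0.111 for each gene of the pair. Rabggta (0.0776) and Gfm1 (0.0996) were nearest to Pml and Stoml1, beside 0.189 for each gene of the pair. A pair gene is part of the mean it is measured against, so its distance is small by construction and equals that of its partner. From each other, Rad51d and Nle1 differed by 0.278 and Slc35b2 and Slc29a1 by 0.137. Elavl4 and Bend5 differed by 0.222, and Pml and Stoml1 by 0.378.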

How the data were processed

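RNA of cortex and hippocampus from mice at postnatal day 7 was measured on Affymetrix exon arrays. The authors deposited a log2 value for each probe set. According to the submitters' processing notes, the values came from Affymetrix Expression Console, by RMA, and were analysed in Partek 6.4 (mm9 build). Which arrays were normalized together is not stated in the labels or headers used here. Array medians lay between 6.57 and 6.77, and the number of arrays limits the precision.

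The values were used as deposited. Of 23332 probe sets 14996 carried 1 symbol in the platform annotation, 1019 several and 7317 none. The members and gene lists were chosen with earlier results of these data known. Groups came from the labels, and 3 of 14 arrays were set aside. The other 11 arrays entered 1 fit in limma 3.58.1 (R 4.3.3) with a mean for each group and eBayes moderation, and p-values were adjusted by Benjamini-Hochberg across the whole table, separately for each comparison. Calls needed an adjusted p under 0.05 and more than a 1.2-fold difference, the limits stated in the series text. SE comes from the moderated fit, SD is taken over the arrays of a group, and intervals cover 95%. The sample titles number the arrays of each group as biological replicates. No label ties an array to a named animal, and the p-values therefore reflect the spread between arrays only. The procedure was tested on simulated data.

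Gene order and promoter windows came from RefSeq tables of GRCm38.p6, a build other than mm9, so they give names, order and letters and no position on the array. Named were the 8 genes, Ctcf, Neurod6, genes that check the labels, flanking genes between or nearest the pairs or called, list genes called or with the 2 smallest p, markers called, and the 2 nearest profiles of each pair. The list of genes that work with Rad51d is not reported here. The ELAV relatives, Tmem151b, Tcte1, Bysl, Notch1 and the other neighbouring pairs both called lower were named after their values were seen. So were Chst7, Ust, Slc35b3, Slc26a2, Bpnt1, Rnf11, Cct6b, Slfn8 and 4930522H14Rik.

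Same-numbered cKO and control cortex arrays did not deviate together (correlations of their deviations from the group mean between -0.06 and 0.05), so the numbers were not taken to pair arrays. Alternatives left out each array in turn, used all 14 arrays, took Y-linked signal as a covariate or left out cortex cKO 1 and 4, and changed the scaling, the filter, the moderation, the fold and the number of flanking genes.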

Additional observations from a re-analysis of the deposited data

Results flagged for a closer look

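In groups of 4 arrays, an array was singled out when its gap to the nearest other array, as a share of the group's range, exceeded Dixon's critical value, which chance does in about 1 in 20 groups. The number of groups screened is not given here, so no excess over that rate is read from the arrays singled out. Slc35b2 was 7.47 on cortex control 1, above 7.07 to 7.12 on the other 3 controls, a gap of 0.875 of the range. Control 1 was also the highest control array for 5 of the 8 genes, and its median over all probe sets, 6.77, was the highest of the cortex arrays. Neurod6 was 10.05 on cortex control 4, below 10.30 to 10.32 on the other 3 controls, a gap of 0.933 of the range. Why these values stand apart was not tested.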

How the results depend on the processing

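The 8 cortex changes kept their sign under all 21 alternatives, and Stoml1 ranged from -1.24 to -1.02. As every cKO array lay below every control array, no array left out could turn a sign. Several alternatives changed only the spread and left the change itself as it was, so nothing is read from the kept signs. Of the 8, 7 were called lower, against 0 without cortex cKO 1 and 4, 5 with the Y-linked covariate and 6 to 8 without single arrays. With replicate number as a block, which rests on numbers that do not pair the arrays, 2 of the 8 were called (Rad51d and Stoml1), 0 between control regions, 1 of the flanking genes, 1 of the list genes, 11 neighbouring pairs both lower, and 97 lower and 21 higher of all probe sets. Not every array correlated best with its own number.

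Over all probe sets, 317 were called lower and 138 higher, against 188 lower with the Y-linked covariate, 42 and 14 without cortex cKO 1 and 4, 203 and 84 at a fold above 1.5, 231 higher after centring and 226 higher after quantile normalization. Single arrays left out gave 198 to 317 lower, at most 208 without cortex cKO 2, cKO 4 or control 4, and 64 to 152 higher, at most 82 without cortex cKO 2, cKO 4 or control 2, 3 or 4. Neighbouring pairs both lower numbered 25, against 2 without cortex cKO 1 and 4 and 22 to 25 without single arrays. Flanking genes called numbered 2, against 1 with all 14 arrays, 1 without cortex cKO 1 and 4, 1 at a fold above 1.5 and 4 with 10 genes on either side. List genes called numbered 6, against 2 with the Y-linked covariate, 1 without cortex cKO 1 and 4, 2 at a fold above 1.5 and 2 to 6 without single arrays. Genes called between control regions numbered 3, against 1 with all 14 arrays and 1 to 3 without single arrays, with 1 without hippocampus control 1. The cause of these shifts was not tested.

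Small changes turned sign. With all 14 arrays, the hippocampus change was -0.087 for Pml, the change in hippocampus minus that in cortex was -0.011 for Slc35b2, and the control region difference was 0.0030 for Nle1 and -0.025 for Stoml1. The hippocampus minus cortex change of Elavl4 was -0.049 after centring and -0.089 after quantile normalization. Single arrays left out gave hippocampus changes of -0.22 to 0.035 for Rad51d, -0.11 to 0.012 for Slc29a1 and -0.15 to 0.040 for Bend5, each highest without hippocampus control 3, and -0.014 to 0.084 for the Elavl4 difference, lowest without cortex control 1. They gave control region differences of -0.073 to 0.0071 for Nle1, highest without hippocampus control 1, and -0.0049 to 0.17 for Slc35b2 and -0.028 to 0.17 for Stoml1, both lowest without hippocampus control 3. Without hippocampus cKO 2 the hippocampus change could not be computed, and each of the 8 genes had 1 probe set, so no other probe set could be tried. With 1 cKO array in hippocampus, changes of the size seen in cortex could be missed there.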
